A study of Mus musculus with 7 samples.

Results

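The 37 genes examined were markers of the cells that share skeletal muscle with muscle stem cells (MuSCs). They were a fixed list of 11 endothelial, 8 fibro-adipogenic, 5 mural, 11 immune and 2 glial genes, and each matched 1 protein-coding gene of GENCODE M21, which holds 21938 of them on the chromosomes used. For each gene, peaks within 3 kb of any annotated transcript start were called promoter peaks.

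The peaks came from 7 libraries of mouse MuSCs on a C57BL/6 background, sorted by flow cytometry. Accessible chromatin was profiled by ATAC-seq, which reads where an added transposase can insert, in 2 Control and 2 TRF2KO libraries from uninjured hind limb muscle, labelled 0 h. In the study's methods the knockout is a floxed Terf2 allele, the gene of the telomere protein TRF2, removed after tamoxifen by Pax7-CreERT2, a recombinase made in Pax7-expressing cells. A cell that never made Pax7 is not a target of that recombinase, which limits the model for any other cell left in the sort. Both TRF2KO libraries carry a wild-type entry as genotype, so their titles were used. TRF2 binding was profiled by CUT&Tag, which directs the transposase to a protein with an antibody. There were 2 such libraries, and 1 library made with a control IgG, all labelled as 3 days after notexin, a toxin that damages muscle. The methods name mice carrying a Pax7 Cre and a tdTomato reporter for CUT&Tag and give a shorter time after injury. The injured CUT&Tag cells and the uninjured ATAC cells are therefore set side by side only as positions.

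Skeletal muscle holds capillary endothelium, fibro-adipogenic progenitors that make the matrix between fibres, mural cells (pericytes and smooth muscle) around vessels, resident and blood-borne leukocytes, and the Schwann cells of its nerves. MuSCs are sorted away from most of them. In the study's general isolation method, cells bearing CD45, CD31, CD11b or Sca1 are gated out. Cells bearing VCAM1 or, in a second protocol, CD34 together with α7-integrin are kept. The CUT&Tag methods cite another source for the isolation, and the ATAC methods name no gate. Those 4 depleted proteins are encoded by 4 of the 37 genes: Ptprc (CD45, a phosphatase of all leukocytes), Pecam1 (CD31, an adhesion protein of endothelium and of leukocytes), Itgam (CD11b, an integrin chain of myeloid cells) and Ly6a (Sca1, a surface protein of fibro-adipogenic progenitors and many endothelial cells). An ATAC peak at a promoter is a property of chromatin, and CpG-rich promoters are often open in cells that make little of the RNA. In sorted bulk cells, few cells with an open promoter and many cells with a weakly open one cannot be told apart.

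The ATAC lists held 84102 to 100521 peaks, the TRF2 lists 12290 and 15479, and the IgG list 656. A MACS peak carries a fold, its pileup of fragments at the summit over the background. Folds of separate lists were not normalized to each other, so each is given as a rank, the percentile of the fold within the library's own list, where 100 is the highest. A rank still depends on the other peaks of its list, and Control replicate 2 had the longest ATAC list and the highest background. At the endothelial gene Kdr, a fold of 6.67 ranked 39.0 in Control replicate 1. There a fold of 5.76 ranked 44.1 in Control replicate 2. The weakest listed ATAC peaks had 10 to 12 fragments at the summit over a background of 3.35 to 4.56. A gene without a peak lay under that limit, which does not show that its chromatin was closed. For the markers of MuSCs themselves, all 12 genes of that list had a promoter peak in all 4 ATAC libraries, with median ranks of 91.0, 91.7, 89.7 and 89.8, close to those of all protein-coding genes with such peaks, 88.6, 90.2, 89.0 and 88.6. At Terf2 the promoter peak ranked 90.1 and 91.5 in Control and 75.0 and 73.3 in TRF2KO.

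Of the 37 markers, 20 had a promoter peak in all 4 ATAC libraries, 10 in 1 to 3 libraries and 7 in none. Over all protein-coding genes, 67.7% had a peak in all 4 libraries and 26.4% in none. By lineage, a peak was present in all 4 libraries at 4 of 5 mural, 8 of 11 endothelial, 5 of 8 fibro-adipogenic, 3 of 11 immune and neither of the 2 glial genes. No peak was found in any library at 6 of the 11 immune genes and at 1 endothelial gene, Emcn. Where the window was narrowed to 500 bp around the start of the gene, 14 of the 37 had a peak in all 4 libraries and 15 had none, beside 58.8% and 35.2% of all protein-coding genes. In that window the immune list held 1 gene with a peak in all 4 libraries, Cd68, and 10 with none.

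Peaks of the 20 genes ranked below those of protein-coding genes as a whole. Their median ranks were 72.8 and 75.3 in Control and 67.0 and 67.9 in TRF2KO, against the 88.6 to 90.2 given above for the 14858 protein-coding genes with a promoter peak in all 4 libraries. The range was wide, from 3.71 at Tie1 to 98.2 at Dpt. The 10 genes with a peak in 1 to 3 libraries never ranked above 52.4, with 12 to 39 fragments at the summit. The highest were at Sox10, with 30 and 39 fragments in Control, and Rgs5, with 26 in TRF2KO replicate 1. At 8 of the 10 the libraries with a peak were not both of 1 genotype and none of the other.

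**Figure D1:**
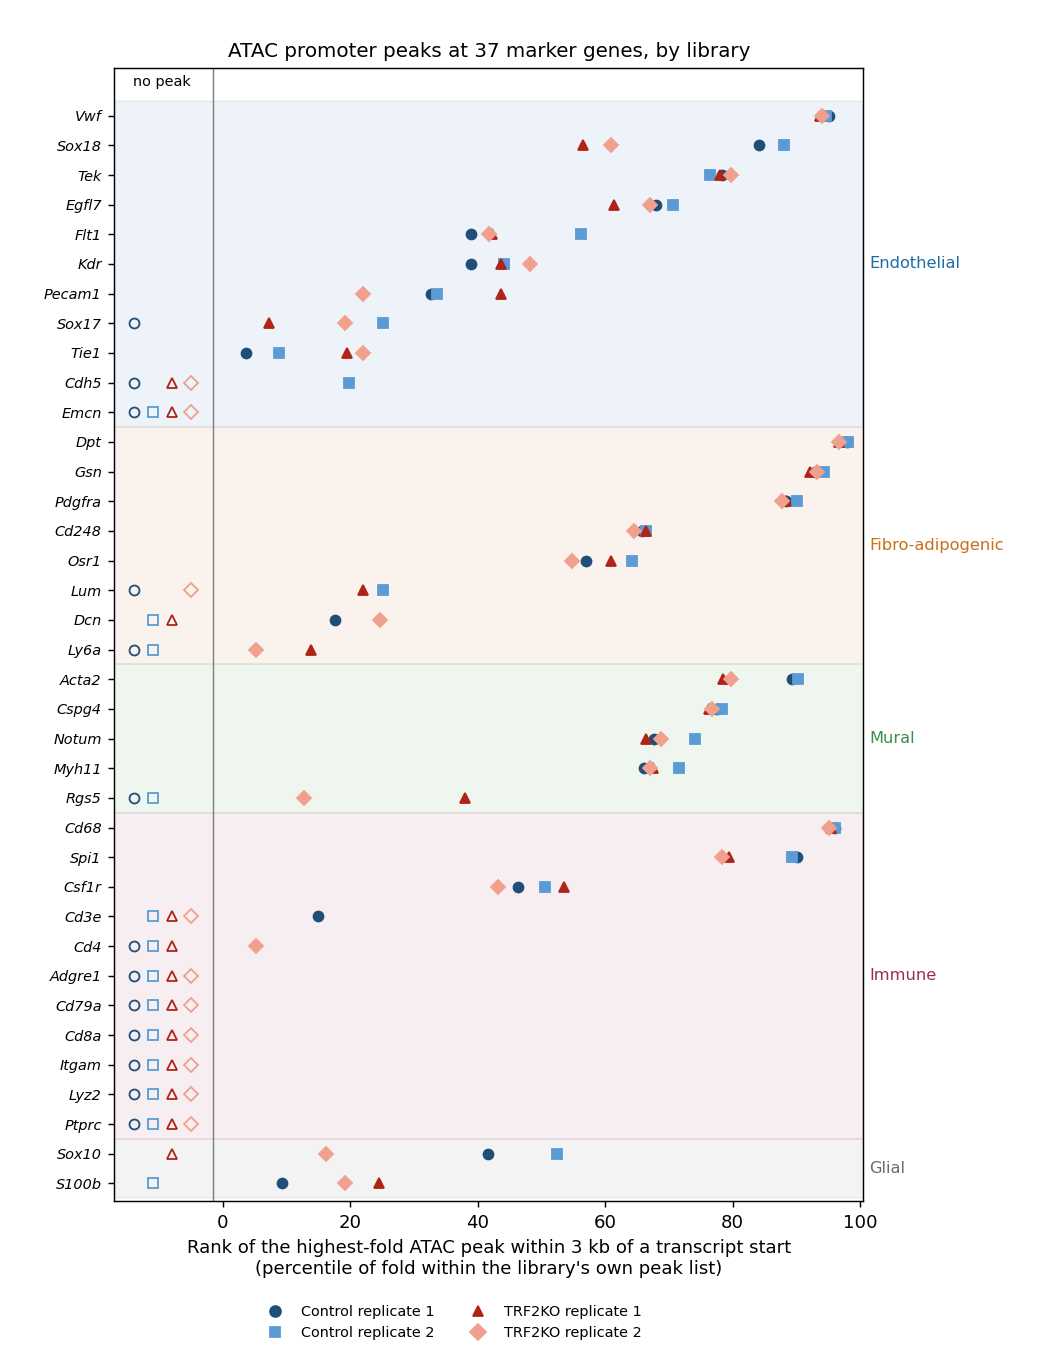
Rank of the highest-fold ATAC peak within 3 kb of a transcript start (percentile of fold within the library's own list) for each of the 37 genes, grouped by lineage, with 1 symbol per library and open symbols at the left where a library had no peak. Of the 11 immune genes, 6 have open symbols for all 4 libraries, while the peaks at Dpt, Cd68, Vwf and Gsn all lie above 92.

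Of the genes of the 4 depleted surface proteins, Ptprc and Itgam had no promoter peak, Ly6a had weak ones and Pecam1 had one in every library. Ptprc, at chr1:138062861-138175708 on the minus strand, had no promoter peak in any of the 4 libraries. Itgam, at chr7:128062640-128118491 on the plus strand, also had none. Ly6a, at chr15:74994877-74998031 on the minus strand, had none in either Control library, a peak of rank 13.8 with 15 fragments in TRF2KO replicate 1 and one of rank 5.22 with 12 fragments in TRF2KO replicate 2. Those peaks were not at the same place, since the first lay 1035 bp before the gene start and the second 1547 bp after it. Pecam1, at chr11:106654217-106750628 on the minus strand, had a peak in all 4 libraries, with ranks of 32.8 and 33.6 in Control and 43.6 and 22.0 in TRF2KO. The ranks of the genotypes overlapped. In Control these peaks lay 86565 and 90787 bp into the gene, 737 and 3485 bp from internal transcript starts. In TRF2KO they lay 611 and 598 bp before the gene start, within 1 bp of a start of the neighbouring gene Milr1. That upstream region was present in all 4 libraries, and so were regions deep inside the gene, the strongest of rank 94.5 to 96.2. For comparison, the genes of the proteins selected for, Vcam1 and Itga7, ranked between 83.8 and 95.1 in the 4 libraries, and Cd34 ranked between 75.8 and 80.1.

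The 250 bases before the starts of Ptprc and Itgam, which had no peak, are shown beside those of the endothelial receptor genes Kdr and Tek, which had a peak at the start in every library. Capitals mark CpG dinucleotides, and each is read on the strand of its gene in GRCm38.
Ptprc, chr1:138175709-138175958, minus strand: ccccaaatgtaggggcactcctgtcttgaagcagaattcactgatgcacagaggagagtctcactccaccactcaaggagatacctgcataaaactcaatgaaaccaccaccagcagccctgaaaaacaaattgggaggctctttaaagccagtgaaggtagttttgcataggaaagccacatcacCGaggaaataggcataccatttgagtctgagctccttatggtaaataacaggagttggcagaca
Itgam, chr7:128062390-128062639, plus strand: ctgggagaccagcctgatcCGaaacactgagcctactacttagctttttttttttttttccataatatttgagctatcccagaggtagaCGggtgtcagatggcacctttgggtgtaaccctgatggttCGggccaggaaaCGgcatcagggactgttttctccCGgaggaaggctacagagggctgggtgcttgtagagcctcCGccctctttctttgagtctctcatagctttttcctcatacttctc
Kdr, chr5:75978459-75978708, minus strand: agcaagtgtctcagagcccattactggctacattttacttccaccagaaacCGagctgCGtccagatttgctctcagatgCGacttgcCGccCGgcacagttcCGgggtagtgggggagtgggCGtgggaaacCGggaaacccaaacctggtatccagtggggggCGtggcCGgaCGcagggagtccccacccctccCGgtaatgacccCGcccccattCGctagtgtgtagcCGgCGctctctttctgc
Tek, chr4:94739039-94739288, plus strand: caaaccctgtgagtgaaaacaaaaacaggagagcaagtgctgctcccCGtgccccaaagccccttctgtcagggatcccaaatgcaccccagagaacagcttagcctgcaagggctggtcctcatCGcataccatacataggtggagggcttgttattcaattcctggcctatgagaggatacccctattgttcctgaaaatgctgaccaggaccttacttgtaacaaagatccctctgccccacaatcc
These stretches held 1, 6, 16 and 2 CpG dinucleotides. Kdr was CpG-rich and had a MACS peak, while Ptprc was CpG-poor and had none. Tek was as CpG-poor as Ptprc yet had a peak of rank 76.4 to 79.8. That peak held 99 to 115 fragments at the summit, 295 to 325 bp before the start.

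Among the immune genes, no promoter peak was found at Ptprc, at the macrophage genes Adgre1 (F4/80, a surface receptor) and Lyz2 (lysozyme), at Itgam, at Cd8a (the co-receptor of cytotoxic T cells) or at Cd79a (a chain of the B cell receptor complex). GoPeaks and SEACR, 2 other callers run by the authors, also found none at 5 of these 6 genes. At Cd79a, SEACR listed a region in 3 libraries, and a MACS region of rank 98.9 to 99.3 lay past the far end of the gene. Cd3e (a chain of the T cell receptor complex) had a peak of rank 15.0 in Control replicate 1 alone, nearer to a start of Gm48719. Cd4 (the co-receptor of helper T cells) had one of rank 5.22 in TRF2KO replicate 2 alone, 17316 bp into the gene. Neither was at the start of the gene. At Cd4 too, SEACR listed a region, in 2 libraries, and a MACS region of rank 73.0 to 77.3 lay past the far end.

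Cd68, a lysosomal glycoprotein of macrophages, had the highest immune ranks, 96.1 and 96.0 in Control and 95.5 and 95.1 in TRF2KO. These peaks did not belong to its own start. Their summits lay 41 to 46 bp from a start of the neighbouring gene Mpdu1. The peaks that reached within 500 bp of the start of Cd68 itself ranked 46.4 and 53.2 in Control and 24.5 and 27.1 in TRF2KO. Csf1r, the receptor for macrophage colony-stimulating factor, was the lowest immune gene with a peak in all 4 libraries, at 46.4 and 50.6 in Control and 53.6 and 43.3 in TRF2KO. The summits lay 7935 to 8055 bp inside the gene, and no peak was found within 500 bp of its start in any library. Spi1, which encodes the myeloid transcription factor PU.1, ranked 90.2 and 89.4 in Control and 79.5 and 78.4 in TRF2KO, from a region 2.02 to 2.04 kb inside the gene. Its start too had no peak within 500 bp. Of the 3 immune genes with a peak in every library, Cd68 was therefore the only one with a peak at its own start, of rank 53.2 at most.

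Whole loci were also counted. Across the gene and 3 kb on either side, no ATAC peak was listed in any library at Ptprc, Adgre1, Itgam, Lyz2, Cd8a and the endothelial gene Emcn, 6 of 37 genes beside 22.1% of all protein-coding genes. Short genes are empty more readily, so long loci were also counted, with a limit of 60 kb chosen after the values were seen. Of the 9 markers with a locus of at least 60 kb, 4 were empty, beside 5.17% of the 4685 protein-coding genes of that length. Those 4 were Adgre1 with 130.8 kb, Ptprc with 118.8 kb, Emcn with 97.1 kb and Itgam with 61.9 kb. The other 5 long loci, Flt1, Vwf, Tek, Myh11 and Pecam1, held 8 to 20 regions each.

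**Figure D2:**
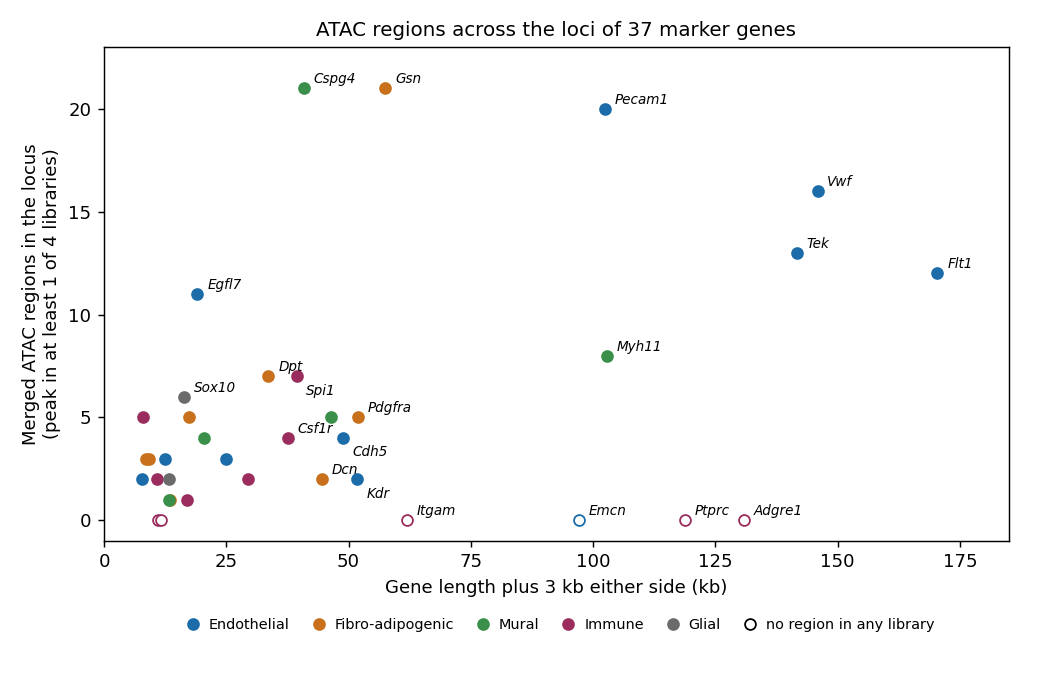
Number of ATAC regions, merged over the 4 libraries, against locus length in kb (the gene plus 3 kb either side) for each of the 37 genes, coloured by lineage, with open circles for loci without a region. Adgre1, Ptprc, Emcn and Itgam lie at 0 at lengths of 61.9 to 130.8 kb, and Cspg4 and Gsn carry 21 regions each in shorter loci.

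Endothelial genes covered the whole range of ranks. Vwf (von Willebrand factor, a clotting protein stored in endothelium) had the highest, 95.2 and 94.6 in Control and 93.7 and 94.0 in TRF2KO. The summit was not at the main start of the gene but 56.6 kb into it, 150 to 151 bp from an internal transcript start, and no peak lay within 500 bp of the main start in any library. Tek (TIE2, the angiopoietin receptor) ranked 78.3 and 76.4 in Control and 78.1 and 79.8 in TRF2KO, so the genotypes overlapped. Its locus held a stronger region 13036 bp inside the gene, of rank 98.4 to 99.1 in the 4 libraries. Kdr and Flt1, the VEGF receptors of endothelium, had start peaks of moderate rank, 39.0 to 48.2 at Kdr and 39.0 to 56.3 at Flt1. GoPeaks listed a promoter peak at both in all 4 libraries, but SEACR listed none at Kdr and one at Flt1 in 1 library.

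The remaining endothelial genes, apart from Egfl7 and Sox18, had weak peaks or none. Cdh5 (VE-cadherin, the junction protein of endothelium) had a single peak of rank 19.8 in Control replicate 2. Emcn (endomucin, a surface mucin of capillaries and veins) had none. Sox17, an endothelial transcription factor gene, had peaks of rank 25.2, 7.33 and 19.2 in Control replicate 2 and both TRF2KO libraries, 3920 to 4765 bp into the gene. Tie1, an orphan receptor related to TIE2, had the lowest peaks among the genes with a peak in all 4 libraries, 3.71 and 8.88 in Control and 19.5 and 22.0 in TRF2KO. These peaks held 12 to 17 fragments at the summit. Egfl7, which encodes a secreted protein of endothelium, ranked 68.1 and 70.6 in Control and 61.4 and 67.0 in TRF2KO, at an internal start 6.86 to 6.99 kb into the gene.

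Among fibro-adipogenic genes, Dpt, Gsn and Pdgfra had ranks within the range of the MuSC list. Dpt (dermatopontin, a matrix protein) was the highest of all 37 genes, with ranks of 97.9 and 98.2 in Control and 96.6 and 96.7 in TRF2KO and 440 to 568 fragments at the summit. The summit lay 2.13 to 2.14 kb inside the gene. A peak at the start was separate in 3 libraries, at 87.0 in Control replicate 2 and 79.9 and 79.8 in TRF2KO, and was joined to the summit in Control replicate 1. Gsn (gelsolin, which severs actin filaments) ranked 92.2 to 94.4, and Pdgfra, the receptor that marks fibro-adipogenic progenitors, ranked 88.4 and 90.0 in Control and 88.4 and 87.8 in TRF2KO. The Pdgfra summit lay 4.12 kb inside the gene, near an internal transcript start, and its main start had no peak within 500 bp. Cd248 (endosialin, a stromal surface protein) ranked 64.5 to 66.4 with summits within 40 bp of its start.

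The lowest fibro-adipogenic gene with a peak in every library was Osr1, a transcription factor gene of these progenitors, at 57.1 and 64.2 in Control and 60.8 and 54.8 in TRF2KO. The proteoglycan genes Dcn and Lum, which stromal cells express strongly, had few peaks. Dcn had a start peak in Control replicate 1 and TRF2KO replicate 2, of rank 17.6 and 24.6. Lum had one 657 to 681 bp inside the gene in Control replicate 2 and TRF2KO replicate 1, of rank 25.2 and 22.0. Both therefore appeared in 1 library of each genotype.

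Of the 5 mural genes, 4 had a peak at the start of the gene in every library. Acta2 (smooth muscle actin) was highest in Control, at 89.4 and 90.2, and stood at 78.4 and 79.8 in TRF2KO, with summits 24 to 72 bp before its start. Myh11 (smooth muscle myosin heavy chain) had the lowest Control mean, with 66.1 and 71.5 in Control and 67.5 and 67.0 in TRF2KO. Cspg4 (NG2, a pericyte proteoglycan) had a peak of rank 72.7 to 76.2 at its start and a slightly higher one, 76.4 to 78.4, about 25 kb inside the gene. Notum, an enzyme that inactivates Wnt ligands, ranked 66.4 to 74.1, at summits 2055 to 2071 bp inside the gene and 37 to 53 bp from a start of Notumos. ATAC reads carry no strand, so such a peak cannot be assigned to either gene. A separate peak lay 3 bp from a Notum start in Control replicate 2, of rank 64.2. TRF2KO replicate 2 had one 16 bp from a Notum start, of rank 60.9. The replicate 1 library of each genotype listed a single peak over both places. Rgs5, a regulator of G protein signalling in pericytes, had no promoter peak in Control and is described with the genotype comparison.

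Neither glial gene had a peak in all 4 libraries. S100b, a calcium-binding protein of Schwann cells, had weak start peaks of rank 9.33 in Control replicate 1 and of 24.5 and 19.2 in TRF2KO. Sox10, the transcription factor of the Schwann cell lineage, had peaks of rank 41.7 and 52.4 in Control, none in TRF2KO replicate 1 and one of rank 16.1 in TRF2KO replicate 2. Those summits lay 1641 to 1708 bp before the gene and nearer to a start of Gm10863.

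Second lists held other markers of the same lineages, also chosen with earlier results of these data known. A promoter peak was present in all 4 libraries at 9 of 9 further mural genes, 9 of 11 fibro-adipogenic, 7 of 10 endothelial, 6 of 7 glial and 3 of 15 immune genes. Pooled, 34 of the 52 had a peak in all 4 libraries and 10 in none, beside 67.7% and 26.4% of all protein-coding genes. The glial lists differed most, 6 of 7 against neither of 2, over few genes. Of the 15 further immune genes, 9 had no peak in any library, among them the macrophage and monocyte genes Mrc1 and Ccr2 and the dendritic cell gene Itgax.

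**Figure D3:**
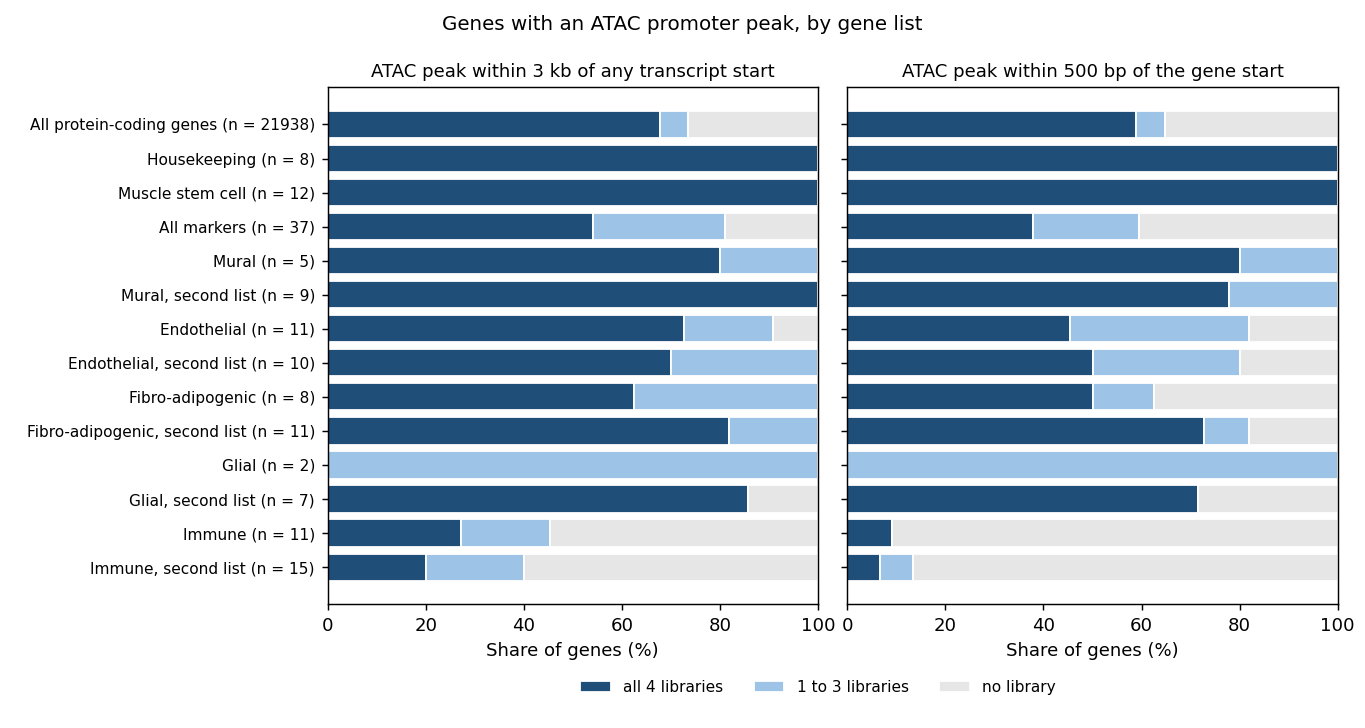
Share of genes (%) with an ATAC peak in all 4 libraries, in 1 to 3 libraries or in none, within 3 kb of any transcript start (left) and within 500 bp of the gene start (right), by gene list with its size. In both panels every MuSC and housekeeping gene has a peak in all 4 libraries, while on the left the immune lists have 3 of 11 and 3 of 15 and the glial list has 0 of 2.

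Base composition at the start moved with these counts. Over all protein-coding genes, the ratio of observed to expected CpG in the 250 bases before and 50 after the gene start was followed by the share with a start peak in all 4 libraries, which was 11.6% for ratios under 0.25, 44.2% for 0.25 to 0.5, 84.0% for 0.5 to 0.75 and 95.3% at 0.75 and over. The markers lay at the low end, with a median ratio of 0.284 against 0.525 for all genes, and 16 of the 37 were under 0.25. Weighted to the markers' own mix of these 4 classes, the shares of all genes would give 15.2 of 37 genes with a start peak in all 4 libraries and 19.1 with none, beside the 14 and 15 observed. The 14 observed was thus near the 15.2 for genes of like CpG content, while the 15 with none was below the 19.1. The weighting pooled the lineages, and the immune list alone held 10 of the 15 without a start peak. Single genes departed from their class in both directions. Tek, Acta2 and Cd68 had start peaks in all 4 libraries at ratios of 0.149, 0.223 and 0.248, while Sox17 had a start peak in 1 library at 0.854 and Cd4 in none at 0.501. The part of base composition in the differences between lineages was not tested.

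**Figure D4:**
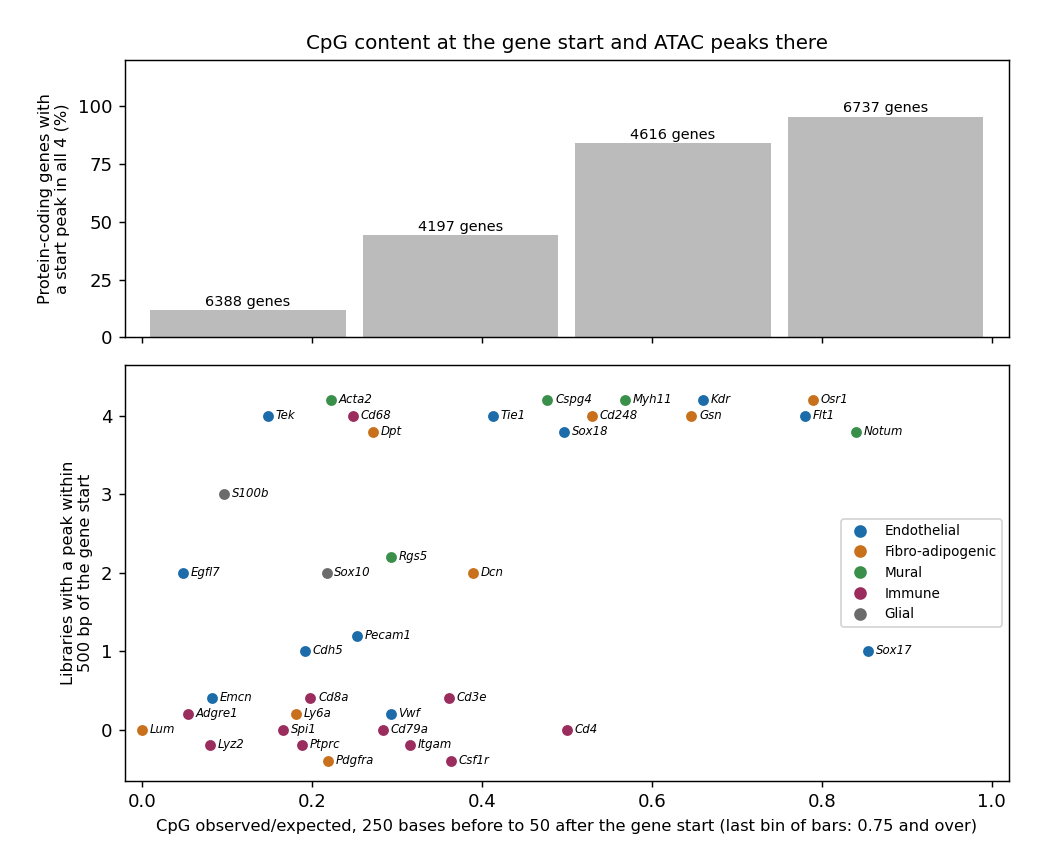
Top, share (%) of all protein-coding genes with an ATAC peak within 500 bp of the gene start in all 4 libraries, by class of CpG observed/expected ratio; bottom, for each of the 37 genes, the number of libraries with such a peak against that ratio, coloured by lineage, with points offset vertically where labels would overlap. Most markers lie under a ratio of 0.5, with immune genes at 0 libraries and Tek, Acta2, Cd68 and Dpt at 4.

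The place of the peak varied too. Of the 20 genes with a peak in all 4 libraries, the highest-fold peak lay within 500 bp of the gene start in every library at 7 (Kdr, Flt1, Tek, Tie1, Cd248, Acta2 and Myh11). It lay by another start of the same gene at 4 (Vwf, Egfl7, Pdgfra and Osr1) and over 500 bp from any of its starts at 6 (Pecam1, Sox18, Dpt, Cspg4, Csf1r and Spi1). At Notum and Cd68 it was nearer to another gene, and at Gsn it moved between peaks of similar fold. The summit windows of Dpt, the highest-ranked of the 37 genes, and of Spi1 and Sox18, with large rank differences between the genotypes, are shown, 100 bases to each side in Control replicate 1, with capitals at CAGCTG, the E-box that myogenic factors such as MyoD bind.
Dpt, chr1:164798677-164798876, plus strand, intron: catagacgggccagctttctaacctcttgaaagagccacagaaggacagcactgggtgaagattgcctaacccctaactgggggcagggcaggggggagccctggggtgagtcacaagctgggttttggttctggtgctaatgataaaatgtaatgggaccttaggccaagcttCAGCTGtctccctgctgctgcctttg
Spi1, chr2:91084328-91084527, plus strand, intron: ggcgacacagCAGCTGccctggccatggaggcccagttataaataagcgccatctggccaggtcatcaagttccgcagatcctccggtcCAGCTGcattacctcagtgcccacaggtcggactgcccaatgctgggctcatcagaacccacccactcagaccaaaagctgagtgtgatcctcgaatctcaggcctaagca
Sox18, chr2:181673616-181673815, minus strand, before the gene: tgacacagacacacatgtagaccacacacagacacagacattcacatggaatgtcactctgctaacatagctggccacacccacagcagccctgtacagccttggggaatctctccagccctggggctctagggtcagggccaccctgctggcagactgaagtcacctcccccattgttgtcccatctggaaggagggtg
The Dpt window held 1 such match, the Spi1 window 2 and the Sox18 window none. With 300 bases at each summit, a match on either strand was present at 11 of the 24 markers with a peak in Control replicate 1, beside 34.5% of all 89160 summit windows of that library. The motif is a match of letters only.

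Between genotypes, a promoter peak was found at 24 of the 37 genes in each Control library, at 25 in TRF2KO replicate 1 and at 27 in TRF2KO replicate 2. Of all 21938 protein-coding genes, 15362 had a promoter peak in Control replicate 1 and 15679 in Control replicate 2. For TRF2KO replicates 1 and 2 these numbers were 15403 and 15390, between the Control values. Among the markers, the difference of 2 genes rested on weak peaks. It was 0 once peaks under a -log10 q of 5 were left out, and it was 1 without TRF2KO replicate 2. No gene had a peak in both Control libraries and neither TRF2KO library, a pattern seen at 0.428% of protein-coding genes. The opposite pattern, seen at 0.191%, was found at 2 markers, Ly6a and Rgs5. At Rgs5 the peak lay at the start of the gene in both TRF2KO libraries, with summits 29 and 86 bp before it, ranks of 38.0 and 12.7 and 26 and 14 fragments at the summit. GoPeaks listed it in 1 library and SEACR in none, and neither caller listed a peak at Ly6a. The interior of Rgs5 was open in all 4 libraries, with a region 16245 bp inside of rank 86.2 to 88.4.

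Ranks were compared at the 20 genes with a peak in all 4 libraries. The median difference, TRF2KO minus Control, was -1.24 percentile points, or -1.95 without Control replicate 1 and -0.189 without Control replicate 2, against -0.295 over the 14858 protein-coding genes with such peaks. Single protein-coding genes ranged from -7.50 at the 5th percentile to 3.13 at the 95th. Both TRF2KO ranks were below both Control ranks at 9 markers (Vwf, Egfl7, Sox18, Pdgfra, Dpt, Acta2, Cspg4, Cd68 and Spi1), a pattern seen at 31.0% of those protein-coding genes. Both were above at 1 marker, Tie1, beside 9.11%. At the other 10 the genotypes overlapped. At Vwf, Pdgfra, Dpt, Cspg4 and Cd68 the difference was between -1.40 and -0.757 points. The gap between the closest libraries of the genotypes was only 0.0154 points at Pdgfra and 0.521 to 1.14 at Vwf, Dpt, Cspg4 and Cd68. The Cd68 value is that of the peak at the Mpdu1 start. The weaker peaks at the start of Cd68 itself also ranked lower in TRF2KO, at 24.5 and 27.1 against 46.4 and 53.2, and were further apart.

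The largest difference between highest-fold peaks was at Sox18, an endothelial transcription factor gene at chr2:181669836-181671640 on the minus strand. Its upstream region, 1949 to 2076 bp before the gene, ranked 84.2 and 88.1 in Control and 56.5 and 60.9 in TRF2KO, with 158 and 206 fragments at the summit against 44 and 48. The groups did not overlap, and the mean difference was -27.5 points (exact two-sided permutation test, p = 0.333, the smallest that 2 against 2 libraries allow). Among protein-coding genes, 35 of 14858, 0.236%, fell at least as far. A second region over the gene itself ranked 51.1 and 64.7 in Control and 22.0 and 19.2 in TRF2KO, lower in the same direction.

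Spi1 and Acta2 followed. The Spi1 region differed by -10.8 points, with 237 and 227 fragments in Control and 119 and 106 in TRF2KO, and 398 genes, 2.68%, fell at least as far. A Spi1 region centred at -1067 bp from the gene start was listed in both Control libraries, at rank 53.5 and 50.6, and in neither TRF2KO library. Acta2 differed by -10.7 points, with 224 and 242 fragments against 112 and 115, and 411 genes, 2.77%, fell at least as far. Egfl7 differed by -5.15 points, and 1181 genes, 7.95%, fell at least as far. Its difference was -2.35 without TRF2KO replicate 1 and -7.94 without TRF2KO replicate 2. Tie1 differed by 14.4 points upward, between peaks near the calling limit, and 49 genes, 0.330%, rose at least as far. Each of these 4 differences had the same exact permutation p of 0.333. These genes were named because their ranks did not overlap, which fixes that p, so it adds nothing. With the peak nearest to a start in place of the highest, the values at Spi1 and Egfl7 were 35.8 and 15.5 points. Neither value compared 1 region across all 4 libraries. At Spi1 the nearest peak was the same 2 kb region in TRF2KO replicate 2 and a weaker one, 802 to 913 bp inside the gene, in the other libraries. At Egfl7 it lay 3808 to 3890 bp inside the gene in Control replicate 2 and both TRF2KO libraries, with ranks of 16.5, 26.8 and 27.1. Control replicate 1 listed no peak there, and its nearest, 914 bp inside the gene, ranked 6.43. That Egfl7 region thus ranked higher in TRF2KO, the opposite direction to the highest-fold peak.

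**Figure D5:**
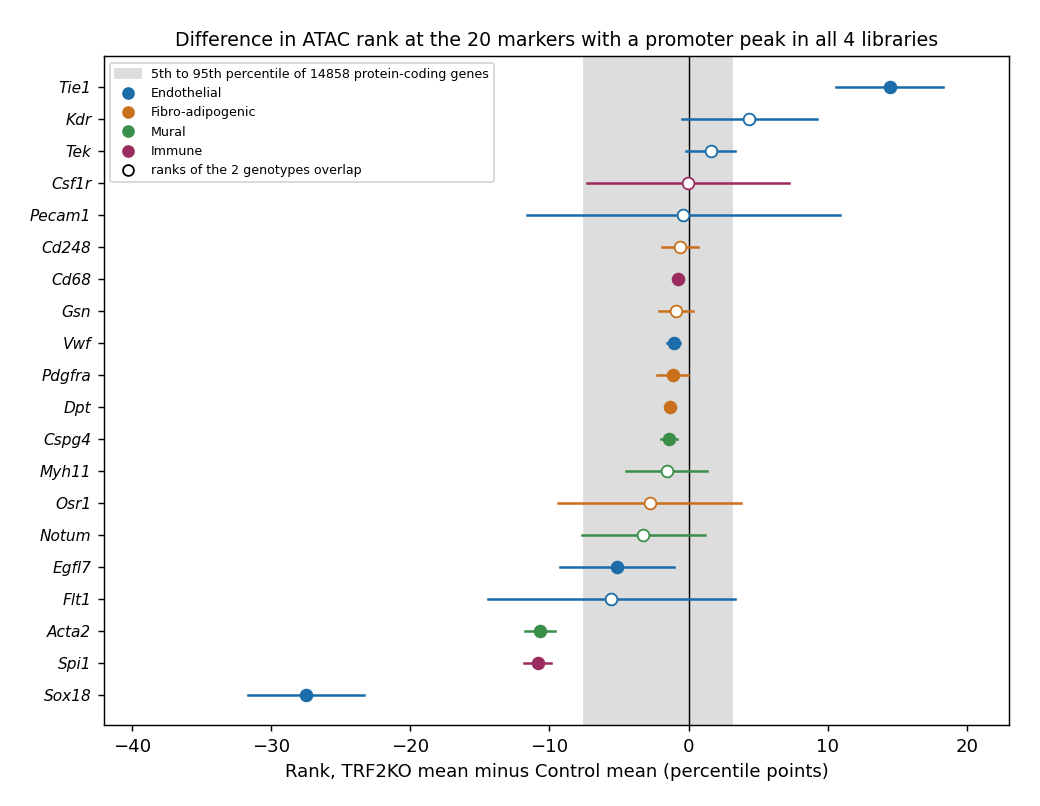
Difference in rank, TRF2KO mean minus Control mean in percentile points, for the 20 genes with a promoter peak in all 4 libraries, where bars run over the 4 differences between single libraries, filled points mark genes whose genotypes do not overlap, and the grey band holds the middle 90% of protein-coding genes. Sox18, Spi1 and Acta2 lie left of the band and Tie1 and Kdr right of it.

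Over the whole loci of the 37 genes there were 201 merged ATAC regions. Of these, 86 were present in all 4 libraries, 42.8% against 49.9% of the regions at all protein-coding genes. Regions in both Control and neither TRF2KO library numbered 7, 3.48% against 4.38%, at Pecam1, Vwf, Dpt, Gsn, Cspg4, Spi1 and Sox10. Regions in both TRF2KO and neither Control library numbered 6, 2.99% against 0.979%, at Cdh5, Ly6a, Gsn, Rgs5 and Cspg4, with 2 of them at Rgs5. The TRF2KO regions ranked between 12.7 and 47.1, so that all were below the median of their lists. The Control regions were also below it, at 5.03 to 38.6, apart from the Spi1 region at 53.5 and 50.6.

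TRF2 was seldom found at these genes. A TRF2 region, with a peak in both TRF2 libraries, lay within 3 kb of a start at 2 of the 37, Egfl7 and Dpt, beside 25.5% of all protein-coding genes. No IgG peak lay at any of the 37, beside 0.251% of all genes. Of the 12 MuSC genes, 1 had a TRF2 region, and of the 8 housekeeping genes 6 had one. Neither region at a marker was at a promoter proper, since none lay within 1 kb of a start.

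At Dpt the TRF2 region, chr1:164798378-164798783, lay in the gene under the strong ATAC peak described above, with folds of 4.73 and 5.91 and 7 and 9 fragments at the summit in the 2 libraries. At Egfl7 the region, chr2:26593893-26594288, lay past the far end of the gene in an intron of its neighbour Agpat2, with folds of 5.37 and 5.01 and 11 fragments in each library. The ATAC peaks over it ranked 10.6 to 42.9. Both were weak, and neither reached a -log10 q of 5 in either library. The stretches shared by both libraries' peaks are shown, with capitals at TTAGGG, the telomere repeat that TRF2 binds, or its complement CCCTAA.
Dpt, chr1:164798557-164798771, plus strand: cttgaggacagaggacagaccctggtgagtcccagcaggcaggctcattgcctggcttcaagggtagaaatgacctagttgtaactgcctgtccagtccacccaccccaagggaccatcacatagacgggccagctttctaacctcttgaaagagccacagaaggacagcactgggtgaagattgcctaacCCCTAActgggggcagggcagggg
Egfl7, chr2:26593917-26594069, plus strand: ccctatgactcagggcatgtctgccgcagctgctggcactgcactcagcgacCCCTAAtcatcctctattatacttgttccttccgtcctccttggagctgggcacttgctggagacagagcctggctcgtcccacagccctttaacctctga
Each held 1 match. A match on either strand was present in 8.42% of the 3692 shared stretches of 100 to 300 bases in the whole data, and a single copy of these letters is not a telomeric array.

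A further 8 of the 37 markers had a TRF2 peak in a single library, beside 17.4% of all protein-coding genes. TRF2 replicate 1 alone had one at Sox18, Pdgfra, Cd248 and Acta2, and TRF2 replicate 2 alone at Flt1, Sox17, Cspg4 and Spi1. The Pdgfra peak was the strongest of these, with a fold of 6.84 and 12 fragments at a summit 403 bp from an internal start and under an ATAC peak of rank 87.8 to 90.0. The summit of the Cspg4 peak lay 43 bp from the gene start, with a fold of 5.05. The other 6 had folds of 3.45 to 4.60 and 4 to 9 fragments. All of them but the Spi1 peak overlapped an ATAC peak of at least 1 library. None of Sox18, Spi1 and Acta2, which ranked lower in TRF2KO, had a TRF2 region. Their single-library TRF2 peaks lay away from the highest ATAC summit, but the Sox18 peak overlapped the weaker region over the gene, which also ranked lower in TRF2KO.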

How the data were processed

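MACS, SEACR and GoPeaks peak lists of 7 libraries of sorted mouse muscle stem cells were used. The submitters' processing notes name cutadapt 4.4, Bowtie2 2.4.4 and 2.5.4, Picard 3.1.1, SAMtools 1.10, deepTools 3.5.3, MACS3 3.0.0 and 3.0.2, SEACR 1.3 and DiffBind 3.10.1, with build mm10, whose coordinates GRCm38 shares. MACS settings, the use of IgG as a control and any shift of ATAC reads are not given in the sources used here, so positions may be off by a few bases.

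Each deposited MACS peak carries a fold, a ratio of pileup to background computed by the authors, with the authors' -log10 p and -log10 q. The deposited MACS score and the authors' SEACR signal were not used, and SEACR, GoPeaks and the authors' consensus regions served as positions only. No counts per region were used here. The fragments at a summit were solved from the fold and -log10 p, exactly for all peaks tried, and follow the depth of the library.

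Peaks on chromosomes 1 to 19, X and Y were kept. A promoter peak overlapped by at least 1 bp the 3 kb on either side of any GENCODE M21 transcript start, and where several did, the highest fold was taken. A TRF2 region was a merged peak with a peak in both libraries. Rank differences were tested with exact permutation, two-sided, over 6 assignments of 4 libraries. Nothing in the labels or methods says more than that the 2 libraries of a group are biological replicates, so a p refers to the spread between them. For genes chosen because their ranks did not overlap, 2 against 2 libraries always give 0.333. Gene lists were described by counts beside the same share of all protein-coding genes. Full values were given for the genes of the 4 depleted proteins, the highest and lowest Control rank of each lineage, genes with a TRF2 region or a peak in 1 genotype only, and the 5 largest rank differences without overlap. The 37 genes and the comparison lists were chosen with earlier results of these data known. Sequence was read from RefSeq's GRCm38 genome. Scripts (Python 3.11.15, NumPy 2.4.6, pandas 2.3.3, SciPy 1.17.1) were tested on simulated lists. Windows, thresholds, callers and left-out libraries were the alternatives tried.

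Same-numbered libraries did not deviate together (correlation of deviations 0.033 across 14858 genes), so replicate numbers were not taken as pairs.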

Additional observations from a re-analysis of the deposited data

How the results depend on the processing

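The number of markers with a promoter peak in all 4 libraries, 20, was 14 to 21 under every alternative. The 7 without a peak in any library became 12 with a window of 500 bp around any start, 12 with GoPeaks, 14 with SEACR and 15 within 500 bp of the gene start, an alternative chosen after seeing the data. The 2 markers with a TRF2 region became 0 with a window of 1 kb or 500 bp and 0 at a -log10 q of at least 5, became 10 with a peak in either TRF2 library, and were 6 with TRF2 replicate 1 alone and 6 with TRF2 replicate 2 alone. The difference of 2 in the number of markers with a peak was 0 with the start of the gene only, 0 at a -log10 q of at least 5 and 0 with GoPeaks. It turned to -0.50 with SEACR and to -1 within 500 bp of the gene start. The cause was not tested. Markers with a peak in both Control and neither TRF2KO library rose from 0 to 1 at a -log10 q of at least 5 and 1 with GoPeaks, both at Sox10. They were also 1 with the start of the gene only (Vwf) and 2 within 500 bp of the gene start (Egfl7 and Sox10). Those with the opposite pattern went from 2 (Ly6a and Rgs5) to 1 with a window of 1 kb (Rgs5), 1 at a -log10 q of at least 5 (Tie1, neither of the 2), 0 with GoPeaks and 0 with SEACR. That pattern was left at Rgs5 alone with a window of 500 bp around any start and within 500 bp of the gene start. It stayed at 2 with the start of the gene only. Leaving out 1 ATAC library gave 20 to 21 markers with a peak in all remaining libraries, 7 to 8 with none and a difference in number of 1 to 3. The median rank difference lay between -1.95 without Control replicate 1 and -0.189 without Control replicate 2 under every alternative. The rank differences of Spi1 and Egfl7 turned to 35.8 and 15.5 with the peak nearest to a start, which was not 1 region across all 4 libraries. At Egfl7 that region was shared by Control replicate 2 and both TRF2KO libraries, and it ranked higher in TRF2KO. With the replicate number as a block, the median rank difference was -1.24, the difference in number was 2, and the smallest p that sign flips over 2 pairs allow was 0.50. The block changed no call. Depth limits the weak peaks most, since a list ends at 10 to 12 fragments at the summit.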

Other observations

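Of the 34 genes of the second lists with a promoter peak in all 4 libraries, 15 ranked lower in both TRF2KO libraries than in both Control libraries and 4 ranked higher, beside 31.0% and 9.11% of all protein-coding genes with such peaks. The 3 genes given next were chosen after their values were seen, and their differences were not tested. Scx, a transcription factor gene of tendon cells, ranked 98.8 and 98.7 in Control and 90.4 and 89.4 in TRF2KO. Cldn5, which encodes a tight junction protein of endothelium, ranked 52.7 and 60.6 in Control and 32.9 and 43.3 in TRF2KO. Mmrn2, which encodes a matrix protein of endothelium, went the other way, from 56.4 and 61.2 in Control to 82.3 and 80.6 in TRF2KO. Of the 6 tendon and fat genes, 3 had a promoter peak in all 4 libraries and 3, Tnmd, Adipoq and Fabp4, had none.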
